A study of Mus musculus with 12 samples.

Results

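The nuclear-encoded respiratory chain genes were the gene records whose symbols in the deposited result tables began with Nduf, Uqcr, Cox4 to Cox8 or Atp5, or were Sdha, Sdhb, Sdhc or Sdhd, without symbols that hold -ps, the mark of a named pseudogene. The rule found 91 genes among 15174 records with a symbol. GENCODE M39 gives 90 of them as protein-coding and 1, Ndufb4c, as a transcribed processed pseudogene. Complex I (NADH dehydrogenase) had 38 of them, Ndufb4c included, and 8 Ndufaf genes, which encode assembly factors of complex I and not subunits, were kept apart. Complex II (succinate dehydrogenase) had 4 genes, complex III (the cytochrome bc1 complex) 8, complex IV (cytochrome c oxidase) 16 and complex V (ATP synthase) 17. Ndufa4, Ndufa4l2 and Cox7a2l were counted with complex IV.

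RNA was measured in CD4-positive T cells from the spleens of wild-type male BALB/c mice aged 18 weeks. The LIP group had ligature-induced periodontitis, made with silk ligatures round the upper second molars, and the CTL group had no ligature. Each group gave 3 libraries on day 0 from uncultured cells and 3 on day 2 from cells cultured with anti-TCRbeta, anti-CD28 and IL-2. The labels of the day 2 libraries name the last antibody as anti-CD28, anti-CD29 and anti-CD30 in turn within each group, whereas their treatment protocol names anti-CD28 alone. Libraries are called by the number in their titles: CTL 88, 89 and 94 and LIP 92, 93 and 94 on day 0, and CTL 92, 93 and 97 and LIP 90, 96 and 97 on day 2. The sources used here do not say whether a library held cells of 1 mouse or of a pool, so p-values measure the spread between these libraries. Day and culture with stimulation went together and cannot be told apart.

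The respiratory chain passes electrons from NADH (complex I) and succinate (complex II) through coenzyme Q, complex III and cytochrome c to oxygen at complex IV. Complexes I, III and IV pump protons across the inner mitochondrial membrane, and complex V lets them return through its membrane ring of c subunits to drive the synthesis of ATP in its F1 head. Complexes I, III, IV and V also hold subunits encoded in mitochondrial DNA, so both genomes supply parts, whereas all of complex II is encoded in the nucleus. Resting T cells are small and quiescent, and T cells that receive signals through the T cell receptor and CD28 grow, divide and enlarge their mitochondria.

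Promoters of respiratory chain genes are known for sites of nuclear respiratory factor 1 (NRF1), of the ETS-family factor GABP and of YY1. Windows from 250 bases before to 50 bases after the GENCODE M39 start site (build GRCm39) were searched on both strands for GCGCA and GCGC with any 1 base between them (NRF1), CCGGAAG (ETS) and ATGGCGGC (YY1). Of the 91 genes, 90 had a window. The NRF1 letters were in 15.6% of the members' windows and in 5.81% of the windows of all 21757 protein-coding genes. For the ETS letters these shares were 16.7% and 10.3%, and for the YY1 letters 4.44% and 1.94%. At least 1 of the motifs was present in 30 of the 90 windows (33.3%), against 16.4% of all. A match describes letters and not a bound site, no match says only that these letters are not in the window, and no test was run on these shares. The windows of the members were close to those of all genes in base composition, with a median GC content of 55.7% against 54.3%.

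**Figure D1:**
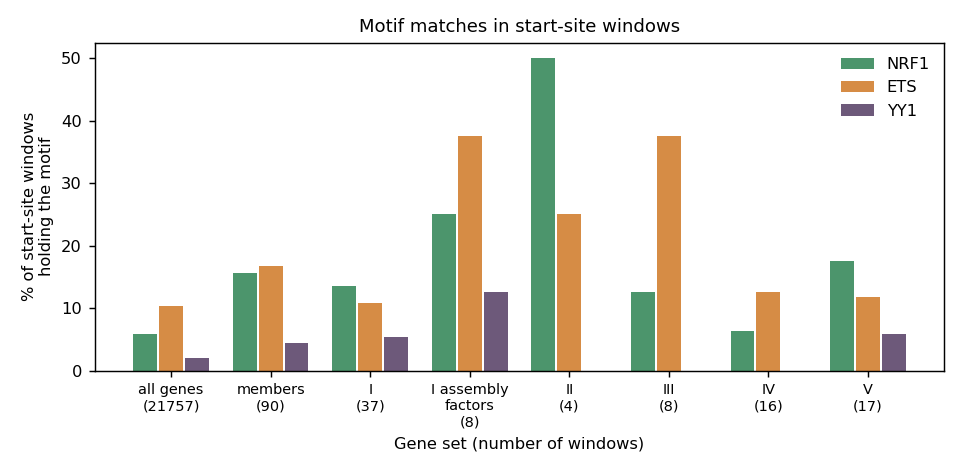
Share of start-site windows, in percent, that held the NRF1, ETS or YY1 letters on either strand, for all protein-coding genes, the members and each complex, with the number of windows in parentheses. The members' bars stand above those of all genes for each motif; the bars of complex II rest on 4 windows and are coarse.

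The stretches printed here hold such a motif outside annotated exons. In complex I, 3 members had such a stretch, and those with the highest and the lowest log2 fold change from day 0 to day 2 in the CTL group are shown. The assembly factors and complexes III, IV and V had 1 such member each, and complex II had none. Each is written 5′ to 3′ on the gene's strand, which was the minus strand for all of them, and capitals mark the motif.
Ndufb11 (complex I, chrX:20484465-20484524, NRF1): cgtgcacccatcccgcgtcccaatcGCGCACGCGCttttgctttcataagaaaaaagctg
Ndufb4 (complex I, chr16:37474887-37474946, NRF1): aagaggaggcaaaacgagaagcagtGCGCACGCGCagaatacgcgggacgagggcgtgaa
Ndufaf2 (complex I assembly, chr13:108295405-108295439, ETS): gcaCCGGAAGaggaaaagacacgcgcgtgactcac
Uqcr11 (complex III, chr10:80242690-80242749, ETS): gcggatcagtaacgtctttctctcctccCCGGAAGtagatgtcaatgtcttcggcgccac
Cox6a1 (complex IV, chr5:115487100-115487159, NRF1): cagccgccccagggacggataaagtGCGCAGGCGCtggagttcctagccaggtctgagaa
Atp5e (complex V, chr2:174305965-174306024, ETS on the other strand): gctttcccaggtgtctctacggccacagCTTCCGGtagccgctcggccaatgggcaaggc

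All motifs in these stretches lay before the start site, from 42 bases in Ndufb11 and 45 in Uqcr11 to 247 in Ndufaf2. Ndufb11 and Ndufb4 carried the same 10 letters and had log2 fold changes from day 0 to day 2 of 1.42 and 0.40 in CTL cells. Over all members tested, the median log2 fold change in CTL cells was 1.04 with the NRF1 letters (14 genes) and 1.27 without them (72 genes). It was 1.57 with the ETS letters (15 genes) and 1.20 without them (71 genes). It was 1.20 with the YY1 letters (4 genes) and 1.27 without them (82 genes). Over all 3 motifs together the medians in CTL cells were 1.29 with any motif (30 genes) and 1.24 with none (56 genes). In LIP cells these medians were 1.38 and 1.39.

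The libraries held 6249018 to 7845676 expected counts on day 0 and 8691699 to 12866718 on day 2. A level is given in CPM, a gene's counts in proportion to the counts of its library after TMM scaling of the 12 libraries, and 3 counts came to 0.233 to 0.48 CPM. Genes of T cells (8 genes, Cd4 and others that CD8 T cells also express) were present throughout, with a summed level of 2450 to 3990 CPM. The 2 CD8 genes summed to 4.43 to 13.2 CPM. Markers of NK cells (4 genes, Klra8 at 0 in all libraries) summed to 2.05 to 10.2 CPM on day 0 and to 0 to 1.22 CPM on day 2, and markers of myeloid cells (8 genes, S100a8 and S100a9 at 0) to 5.78 to 13.5 and 2.51 to 5.06 CPM. Markers of B cells (6 genes) were at 2.64, 2.75 and 16.7 CPM in CTL 92, 93 and 97 on day 2. They were at 0.896 CPM in LIP 90, 25.6 in LIP 96 and 22.3 in LIP 97, and the CD8 genes at 4.93, 13.2 and 9.2 CPM in these 3 LIP libraries. Markers of pancreatic acinar cells (9 genes) reached 25.6 CPM in a LIP library on day 0. The parts of these in the results were not tested. A list of 8 genes of stimulation and cycling summed to 516 to 703 CPM on day 0 and to 5790 to 7990 CPM on day 2. Tfrc, the transferrin receptor, is 1 gene of this list, and activated T cells raise it. It was at 1261, 1118 and 1312 CPM in the CTL libraries of day 2. In LIP 90, 96 and 97 it was at 1614, 286 and 569 CPM. The whole list, Tfrc included, differed less in proportion. It summed to 6920, 6880 and 6990 CPM in CTL 92, 93 and 97. In LIP 90, 96 and 97 the sums were 7989, 5792 and 6128 CPM. LIP 90 thus differed from LIP 96 and 97 in Tfrc and in the B cell genes, in which CTL 92 and 93 were also low.

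Per length of transcript, Atp5b had the highest level of the members in both groups on both days. Counts per kilobase of the longest annotated transcript were scaled to the same total in each library (TPM). Atp5b, the catalytic beta subunit of F1, was at 401 ± 11.4 TPM (SD, n = 3) in CTL cells on day 0, and Atp5a1, the alpha subunit, had rank 2 there at 190.5 ± 17.2 TPM. Cox8a (145.5 ± 20.7 TPM), Cox6a1 (141.4 ± 5.39 TPM) and Cox4i1 (134.6 ± 14.6 TPM), subunits of complex IV, followed and did not differ beyond their spread. At the other end, Atp5g2, 1 of 3 genes for the same mature c subunit, was at 1.63 ± 0.386 TPM, against 106 ± 23.8 TPM for Atp5g3. These values depend on the transcript whose length is used, which was as long as 5120 bases for Ndufa4. With the median length of each gene's transcripts Atp5b was again first in all 4 groups (323 ± 10.5 TPM in CTL cells on day 0), but Cox7a2l (213 ± 17.3 TPM) and Atp5a1 (212 ± 21.3 TPM) came next there and did not differ beyond their spread. On day 2 in CTL cells, again with the longest transcript, Atp5b was at 1104 ± 37.8 TPM, Cox8a at 483 ± 27.3 and Atp5a1 at 382 ± 17.4. Sdha, the flavoprotein subunit of complex II that oxidizes succinate, had rank 9 of the members in TPM in CTL cells on day 0 (88.95 ± 6.1) and rank 22 on day 2 (93.2 ± 6.66).

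From day 0 to day 2 most of these genes rose in both groups. In CTL cells 76 of the 87 members that passed the filter on low counts were higher on day 2 and none was lower (edgeR quasi-likelihood test, Benjamini-Hochberg adjusted p under 0.05 over 15475 genes), where 35.3% of all genes tested were higher and 33.7% lower. In LIP cells 81 of 87 were higher and 1 was lower, where 36.6% of all genes were higher and 35.2% lower. The median member rose 2.37-fold in CTL (log2 1.25) and 2.61-fold in LIP cells (log2 1.38), whereas the median log2 fold change of all genes was -0.022 and -0.003. Groups did not overlap, with day 2 above day 0, in 78 members in CTL and 79 in LIP cells, where this held for 37.2% and 37.4% of all genes. The 2 day contrasts were fitted on separate libraries but share 1 estimate of the spread. With upper-quartile scaling, 38.4% of all calls in CTL and 37.7% in LIP cells were higher, in place of 51.1% and 51%, and the median of all genes moved to -0.31 and -0.32. The members' medians were then 0.96 and 1.061, and less the median of all genes they were 1.27 and 1.38, as with TMM (1.27 and 1.39). A change of scaling shifts all genes nearly alike, so this difference was bound to stay and is no check on the scaling. With this scaling 70 members in CTL and 71 in LIP cells were called higher, and 4 and 1 lower, where 27.5% and 27.7% of all genes were higher and 44.1% and 45.8% lower. In bulk RNA, a change in the make-up of the cells and a change of RNA per cell cannot be told apart, and CPM are shares of a library and not amounts per cell.

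The summed level of the members was 3161, 2686 and 3217 CPM in CTL and 2918, 2821 and 2941 CPM in LIP cells on day 0. On day 2 it was 6592, 7068 and 7384 CPM in CTL and 8453, 7688 and 7182 CPM in LIP cells. Both day 2 groups lay above both day 0 groups, and on day 2 the lowest LIP library lay below the highest CTL library. As a share of all counts, with no scaling factor, the members took 0.284% to 0.35% on day 0 and 0.634% to 0.734% on day 2.

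**Figure D2:**
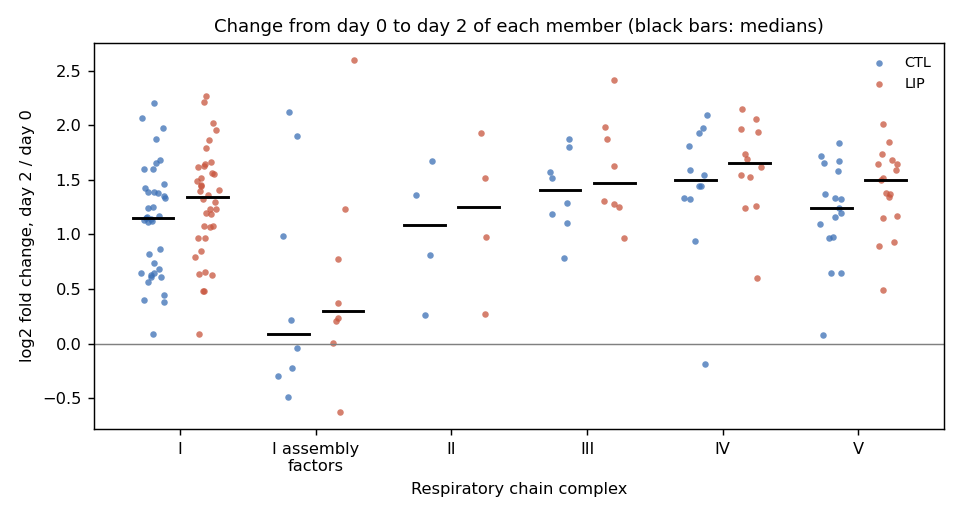
Log2 fold change from day 0 to day 2 of each member tested, by complex, in CTL (blue) and LIP (red) cells, with medians as black bars. Nearly all subunits lie above 0 in both groups, while the assembly factors of complex I lie round 0 apart from a few; Ndufaf3 is the lowest point in both groups (-0.49 and -0.62).

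In each of the 5 complexes the median member was higher on day 2 than on day 0 in both groups. The median log2 fold change in CTL cells was 1.16 in complex I, 1.09 in complex II, 1.40 in complex III, 1.497 in complex IV and 1.24 in complex V. In LIP cells these medians were 1.34, 1.25, 1.47, 1.65 and 1.5. The summed CPM of each complex rose 2.14-fold, 1.61-fold, 2.43-fold, 2.33-fold and 2.6-fold in CTL cells and 2.41-fold, 1.74-fold, 2.84-fold, 2.82-fold and 3.03-fold in LIP cells, in the same order. Complex II was the lowest by these measures in both groups, with 4 genes of which Sdha carried 130.7 of 194.7 CPM in CTL cells on day 0 and 156.5 of 313.4 CPM on day 2. The order depended on the measure, and no test between complexes was run. The median TPM of complex II, with the median length of transcripts, rose 2.55-fold in CTL and 2.41-fold in LIP cells, the highest of the 5 complexes in each group. With the longest transcript these ratios were 2.45 and 2.21, and complex IV was the highest (3.19 and 2.32). In each library, the median log2 level relative to CTL cells on day 0 lay between 1.12 and 1.29 for complex I and between 1.39 and 1.64 for complex IV in the CTL libraries of day 2. The LIP libraries of day 2 lay between 1.25 and 1.45 for complex I and between 1.36 and 1.77 for complex IV. Each complex thus overlapped between CTL and LIP cells on day 2 in this measure.

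**Figure D3:**
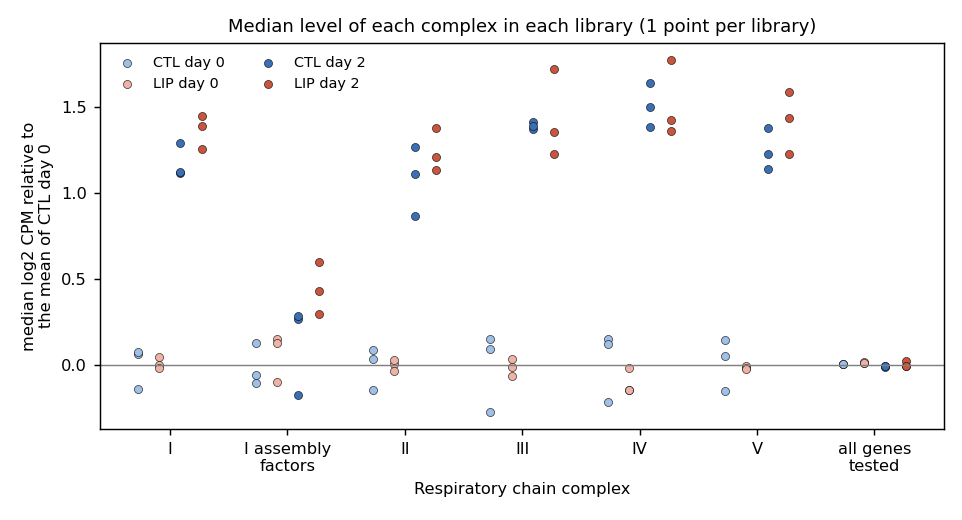
Median log2 CPM of each complex in each library relative to the mean of the CTL libraries of day 0, with 1 point per library, coloured by group, and all genes tested at the right. Libraries of day 2 lie 0.87 or more above 0 for all 5 complexes, the assembly factors of complex I lie between -0.18 and 0.60 on day 2, and all genes stay within 0.02 of 0.

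In complex I, 34 of the 38 genes rose in CTL and 37 of 38 in LIP cells. Among them is Ndufb4c, the annotated pseudogene, whose counts are uncertain because such a copy can share reads with its parent gene, and which passed the test in LIP cells only (1.58-fold, adjusted p 0.0465). All 7 core subunits, which carry out NADH oxidation and electron transfer, rose in both groups. Ndufv1, which binds NADH, was at 31.9, 21.9 and 33.7 CPM in CTL cells on day 0 and at 61.7, 53.3 and 78.1 CPM on day 2, a 2.21-fold rise (log2 1.15, SE 0.161, adjusted p 2.67e-05). In LIP cells Ndufv1 went from 32.2, 30.8 and 31.7 to 78.5, 79.7 and 75.1 CPM (2.46-fold, adjusted p 7.1e-06). Ndufs1, the largest iron-sulphur subunit, rose less, by 1.6-fold in CTL and 1.39-fold in LIP cells (adjusted p 5.53e-05 and 0.00094), and with upper-quartile scaling its call in LIP cells was lost.

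The accessory subunits spanned a wider range. Ndufb6 was at 6.48, 5.66 and 9.47 CPM in CTL cells on day 0 and at 35.4, 28.8 and 35.4 CPM on day 2 (4.61-fold, SE 0.236 on the log2 scale, adjusted p 2.11e-06). Ndufc2 had the largest rise of complex I in LIP cells, from 10.9, 12.4 and 12.8 to 64.7, 56.2 and 52.6 CPM (4.8-fold, adjusted p 9.63e-09). Ndufb2 did not pass the test in either group, at 17.5, 16.6 and 22.2 CPM in CTL cells on day 0 and 17.0, 19.0 and 23.9 CPM on day 2, and overlapped between days (log2 0.09, SE 0.161, and -0.20 with upper-quartile scaling). In CTL cells Ndufa2, Ndufb10 and Ndufb4c also did not pass the test, with log2 fold changes of 0.45, 0.38 and 0.65.

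Of the 8 assembly factors of complex I, 3 rose in CTL cells and none fell, where 35.3% of all genes rose and 33.7% fell, with a median log2 fold change of 0.09. In LIP cells 3 rose and 1 fell, where 36.6% of all genes rose and 35.2% fell, with a median of 0.30. The share that rose was thus near that of all genes. With upper-quartile scaling these medians were -0.19 and -0.02. Then 3 were called higher and 3 lower in CTL cells, and 2 higher and 1 lower in LIP cells. The risers were Ndufaf1, Ndufaf2 and Ndufaf6 in both groups. In LIP cells 2 genes were called higher without LIP 94 of day 0 or without LIP 90 of day 2. Ndufaf1, which acts in the building of the membrane arm, went from 12.1, 10.2 and 10.9 to 23.3, 22.1 and 20.2 CPM in CTL cells (1.98-fold, adjusted p 7.23e-05). Ndufaf2 was low, at 1.36, 1.32 and 1.05 CPM in CTL cells on day 0 and 4.12, 5.97 and 6.25 CPM on day 2 (4.33-fold, adjusted p 3.31e-05), with day 0 at a few counts per library. Ndufaf3 went down in the fitted values of both groups. It was at 8.29, 6.38 and 8.29 CPM in CTL cells on day 0 and at 5.71, 4.54 and 6.02 CPM on day 2 (log2 -0.49, SE 0.228, adjusted p 0.0697). In LIP cells it was at 10.6, 7.598 and 6.81 and then at 4.48, 6.55 and 5.18 CPM (log2 -0.62, SE 0.225, adjusted p 0.0235), and this call was lost when LIP 92 of day 0, LIP 90 or LIP 97 of day 2 was left out.

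In complex II all 4 genes passed the test in both groups, and they differed in size of rise. Sdha (chr13:74469359-74498436, minus strand) was at 142, 122 and 128 CPM in CTL cells on day 0 and at 152, 151 and 166 CPM on day 2. In LIP cells Sdha was at 129.5, 128.7 and 128.4 and then at 172, 158 and 136 CPM. Its log2 fold change was 0.26 (SE 0.1, adjusted p 0.0326) in CTL and 0.27 (SE 0.1, adjusted p 0.0258) in LIP cells, and with upper-quartile scaling it turned to -0.03 and -0.05. The call was also lost in CTL cells without CTL 89 of day 0 or CTL 97 of day 2, and in LIP cells without LIP 94 of day 0, LIP 90 or LIP 96 of day 2.

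Sdhd, a membrane anchor of complex II, was at 15.7, 13.5 and 17.6 CPM in CTL cells on day 0 and at 48.0, 44.6 and 56.4 CPM on day 2 (3.19-fold, log2 1.67, SE 0.169, adjusted p 1.19e-06). In LIP cells it went from 14.3, 16.3 and 17.9 to 74.7, 60.6 and 48.8 CPM (3.8-fold, adjusted p 2.69e-07). The lowest day 2 library was thus well above the highest day 0 library. Sdhb, the iron-sulphur subunit, rose 2.57-fold in CTL and 2.87-fold in LIP cells (adjusted p 1.32e-06 and 4.02e-07). Sdhc, the other anchor, rose 1.76-fold and 1.96-fold (adjusted p 0.000192 and 3.73e-05).

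In complex III all 8 genes rose in both groups. Uqcrfs1, the Rieske iron-sulphur protein, was at 34.4, 22.03 and 36.3 CPM in CTL cells on day 0 and at 109, 92.2 and 122 CPM on day 2 (3.49-fold, adjusted p 8.55e-07), and rose 3.95-fold in LIP cells. The core proteins Uqcrc1 and Uqcrc2 rose 1.72-fold and 2.15-fold in CTL and 1.96-fold and 2.48-fold in LIP cells. The small subunit Uqcr10 had the largest rise of the complex in CTL cells (3.67-fold). In LIP cells the largest was that of Uqcrq, from 19.98, 20.8 and 23.7 to 88.7, 138.5 and 117 CPM (5.34-fold, log2 2.42, SE 0.156, adjusted p 1.69e-08). Uqcrq, a small subunit without a catalytic centre, lies at chr11:53318749-53322047 on the minus strand.

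In complex IV, 12 of the 16 genes passed the filter. Cox5a, a nuclear-encoded subunit on the matrix side, rose most in CTL cells, from 19.4, 11.8 and 20.3 to 77.0, 70.8 and 71.4 CPM (4.28-fold, log2 2.096, SE 0.168, adjusted p 1.36e-07). Cox5b rose 2.72-fold in CTL and 2.88-fold in LIP cells. Cox4i1, the largest nuclear-encoded subunit, was at 92.8, 73.4 and 93.3 CPM in CTL cells on day 0 and 160, 165 and 174 CPM on day 2 (1.92-fold, adjusted p 5.69e-06). In LIP cells Cox4i1 went from 79.1, 73.0 and 72.4 to 198, 246 and 213 CPM (2.92-fold, adjusted p 5.34e-08). Ndufa4, named for complex I and found in complex IV, rose 2.5-fold in CTL and 2.4-fold in LIP cells.

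Cox7a2l (chr17:83765970-83824759, minus strand), which joins complexes III and IV into supercomplexes, had the smallest change of the members of complex IV that were tested. It was at 166, 146 and 177 CPM in CTL cells on day 0 and at 134, 142 and 154 CPM on day 2 (log2 -0.19, SE 0.137, adjusted p 0.237), and these ranges overlapped. With upper-quartile scaling it was called lower there (log2 -0.47, adjusted p 0.01). In LIP cells Cox7a2l rose from 138, 126 and 126 CPM to 156.5, 242 and 194 CPM (1.52-fold, log2 0.60, SE 0.137, adjusted p 0.00138), a call that was lost with upper-quartile scaling. Its paralogue Cox7a2, a subunit of the enzyme itself, went from 29.2, 16.5 and 26.7 to 96.7, 84.2 and 103 CPM in CTL cells (3.93-fold, adjusted p 7.13e-07) and rose 4.43-fold in LIP cells, the most of the genes of complex IV tested.

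Genes for tissue-restricted paralogues of complex IV stayed near or below 3 counts per library on day 0. Cox6a2 and Cox7a1, isoforms of striated muscle, and Ndufa4l2, known as a target of hypoxia signals, did not pass the filter over 12 libraries, nor did Cox6b2, known from testis. Cox6a2 was at 0 in all 6 libraries of day 0 and on day 2 at 0.106, 0 and 0 CPM in CTL and at 0.0896, 4.68 and 1.81 CPM in LIP cells. Cox7a1 reached 0.896 CPM and Ndufa4l2 0.389 CPM at most. Outside the rule, Cox8b and Cox8c had 0 counts in every library and Cox4i2 no more than 1. The widely expressed paralogues Cox6a1, Cox6b1 and Cox8a rose 3.0-fold, 2.73-fold and 3.8-fold in CTL cells, so the counts of each pair came almost wholly from them.

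In complex V, 16 of 17 genes rose in CTL and 17 of 17 in LIP cells. Atp5b (chr10:127919132-127926261, plus strand) was at 341, 311 and 335 CPM in CTL cells on day 0 and at 931, 1101 and 1080 CPM on day 2 (3.15-fold, log2 1.66, SE 0.098, adjusted p 8.71e-09). In LIP cells Atp5b went from 294, 288 and 320 to 1275, 1150 and 1214 CPM (4.04-fold, adjusted p 1.8e-09), the largest rise of complex V there. Atp5a1 rose 2.3-fold and 2.61-fold (adjusted p 5.65e-07 and 1.35e-07).

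The c-ring genes Atp5g1, Atp5g2 and Atp5g3 rose 2.23-fold, 1.97-fold and 3.58-fold in CTL and 3.02-fold, 2.54-fold and 3.13-fold in LIP cells. Atp5g2 rested on 1.81, 2.41 and 3.03 CPM on day 0 and 6.24, 3.34 and 4.77 CPM on day 2 in CTL cells (adjusted p 0.0344), and its call was lost with upper-quartile scaling and without CTL 88, 89, 92 or 97. The 4 genes of the peripheral stalk had a median rise of 2.47-fold in CTL and 2.84-fold in LIP cells, and the 5 accessory genes of the membrane part had 2.14-fold and 2.25-fold. Atp5k, which acts in the dimer of the enzyme, was the exception in CTL cells, at 1.66, 1.93 and 2.37 CPM on day 0 and 2.22, 1.91 and 2.16 CPM on day 2 (log2 0.08, adjusted p 0.863). Atp5l had the smallest rise in LIP cells (1.41-fold, adjusted p 0.0162), a call that was lost with upper-quartile scaling, under which the value of Atp5k in CTL cells turned to -0.21.

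Atp5if1, the inhibitor that blocks hydrolysis of ATP by complex V, is listed under the older symbol Atpif1 and so lay outside the rule. It was at 8.44, 7.95 and 7.63 CPM in CTL cells on day 0 and at 49.6, 65.7 and 46.0 CPM on day 2 (log2 2.75, SE 0.17, adjusted p 1.23e-08). In LIP cells it went from 7.30, 7.18 and 10.2 to 51.1, 53.7 and 59.7 CPM (log2 2.73, adjusted p 1.14e-08). These log2 values were above those of every member tested in both groups.

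**Figure D4:**
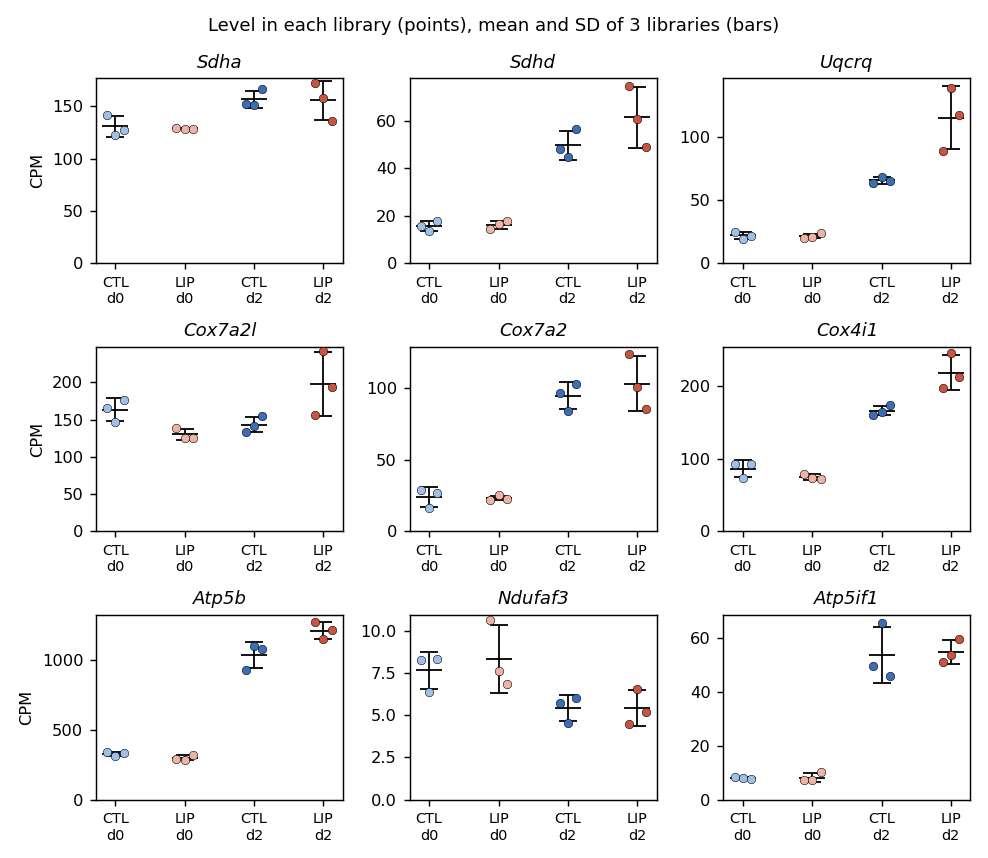
CPM of 9 genes in each library, with the mean and SD of 3 libraries as bars, in CTL and LIP cells on day 0 (d0) and day 2 (d2). Sdhd, Uqcrq, Cox7a2, Cox4i1, Atp5b and Atp5if1 rise in both groups with no overlap between days; Sdha and Cox7a2l have high levels already on day 0 and change little in CTL cells, and Ndufaf3 goes from a mean of about 8 to about 5 CPM.

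Of the 85 members tested on day 0, 0 passed the adjusted threshold in either direction (edgeR quasi-likelihood test), where 0.0569% of all genes tested were higher and 0.37% lower in LIP cells. DESeq2 called 1 member, Cox7a2l, lower, where it called 1.54% of all genes lower. At an unadjusted p under 0.05, 0 members were higher and 5 lower, against 6.67% and 7.2% of all genes. The median log2 fold change was 0.003 over the members and 0.009 over all genes, and 43 of 85 members were positive, against 51.9% of all genes. These values rested in part on CTL 89, in which the members' median log2 level relative to the mean of the CTL libraries was -0.15, against 0.08 in CTL 88 and 0.11 in CTL 94. Of the list of stimulation and cycling, the cycling genes Mki67, Top2a, Ccnb1 and Cdk1 were also lowest in CTL 89 of the 6 libraries, with Mki67 at 28.7 CPM against 63.9 in CTL 88 and 126 in CTL 94, and their part in these values was not tested. The whole list summed to 558 CPM in CTL 89, below CTL 88 (703) and CTL 94 (594). This was above LIP 92, 93 and 94 (529, 516 and 518 CPM), so the other genes of the list did not all follow. Without CTL 89 the median was -0.08 over the members and 0.002 over all genes, 20 of 86 members were positive, and 16 were lower and 0 higher at an unadjusted p under 0.05. The count of lower members was 2 without CTL 88 and 3 without LIP 93, and without CTL 94 there were 5 higher and 5 lower. Shares of all genes at this unadjusted threshold were not computed without 1 library, so these counts cannot be set against them. At the adjusted threshold, 0.132% of all genes were higher and 0.536% lower without CTL 89, and 1.79% and 2.8% without CTL 94. The groups did not overlap in 1 member with LIP higher and in 6 with LIP lower, against 9.26% and 9.85% of all genes. The 5 members with a low unadjusted p were Ndufs4 (-0.27), Uqcrb (-0.36), Cox6b1 (-0.28), Cox7a2l (-0.32) and Cox7b (-0.30), of complexes I, III and IV.

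Cox7a2l had the smallest adjusted p on day 0, at 0.137, with the 3 LIP libraries (126 to 138 CPM) all below the 3 CTL libraries (146 to 177 CPM) and a log2 fold change of -0.32 (SE 0.084). Its adjusted p was 0.0352 by DESeq2, 0.0127 with no filter on low counts and 0.0383 without CTL 89. Uqcrb, a small subunit of complex III, was at 17.0, 16.4 and 18.2 CPM in CTL and at 12.95, 13.7 and 13.4 CPM in LIP cells (adjusted p 0.224). The highest fitted values in LIP cells on day 0 were those of Atp5e (0.34), an F1 subunit, Ndufc1 (0.32) and Cox5a (0.29), and the lowest that of Atp5k (-0.39), all short of the threshold. Without CTL 89, in which Atp5e was at 13.5 CPM against 28.9 and 36.6 CPM in the other CTL libraries, the values of Atp5e, Ndufc1 and Cox5a were 0.002, 0.08 and 0.07.

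On day 2, 60 of the 88 members tested were higher in LIP cells, where 49.2% of all genes were, but 0 members passed the adjusted threshold in either direction, and 0% of all genes did (edgeR quasi-likelihood test). DESeq2 called Uqcrq higher and Cox6b2 lower, where it called 2.08% of all genes higher and 1.47% lower. At an unadjusted p under 0.05, 12 members were higher and 1 lower, against 8.33% and 8.2% of all genes. The count of higher members was 5 without CTL 92 or LIP 96 and 17 without CTL 97, and without LIP 90 there were 13 higher and 10 lower. Shares of all genes at this threshold were not computed in these fits, so these counts cannot be set against them. Without LIP 90, 7.74% of all genes were higher and 6.19% lower at the adjusted threshold. The median log2 fold change was 0.14 over the members and -0.006 over all genes. The groups did not overlap in 17 members with LIP higher and in 1 with LIP lower, against 10.9% and 10.5% of all genes. By complex the medians were 0.16 in complex I, 0.14 in complex II, 0.08 in complex III, 0.03 in complex IV and 0.14 in complex V. On leaving out single libraries, they ranged from 0.13 to 0.22 in complex I, 0.05 (without CTL 93) to 0.24 (without CTL 97) in complex II, 0.03 (without CTL 92) to 0.15 (without LIP 97) in complex III, 0.001 (without LIP 90) to 0.08 (without LIP 96) in complex IV and 0.1 (without CTL 92) to 0.22 (without CTL 97) in complex V. The direction also depended on the measure. The summed level in LIP cells was 1.11 times that in CTL cells with TMM and 1.04 times without it, and the ratio of median TPM was 1.01 with the longest transcript, at which complexes I and IV were lower in LIP cells (0.914 and 0.885). With the median transcript length complexes IV and V were lower (0.981 and 0.926).

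The order of the libraries on day 2 bore on these values. LIP 90 had the highest of the 3 LIP levels in 56 of the 88 members, LIP 96 in 28 and LIP 97 in 4, and LIP 97 had the lowest in 53. The median log2 level of the members relative to the mean of the CTL libraries of that day was 0.29 in LIP 90, 0.15 in LIP 96 and -0.02 in LIP 97, against -0.06, -0.01 and 0.09 in CTL 92, 93 and 97. LIP 97 thus lay within the CTL libraries. Without LIP 90, 8 members were called higher and 6 lower, with a median of 0.09, where 7.74% of all genes were called higher and 6.19% lower. Those higher were Ndufa6, Ndufb9, Uqcrq, Cox4i1, Cox6a2, Cox7a2l, Atp5g1 and Atp5o, and those lower were Ndufa1, Uqcr11, Ndufa4, Cox6b2, Cox7b and Atp5j2. Whether LIP 90 or the remaining libraries stand for the group was not tested.

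**Figure D5:**
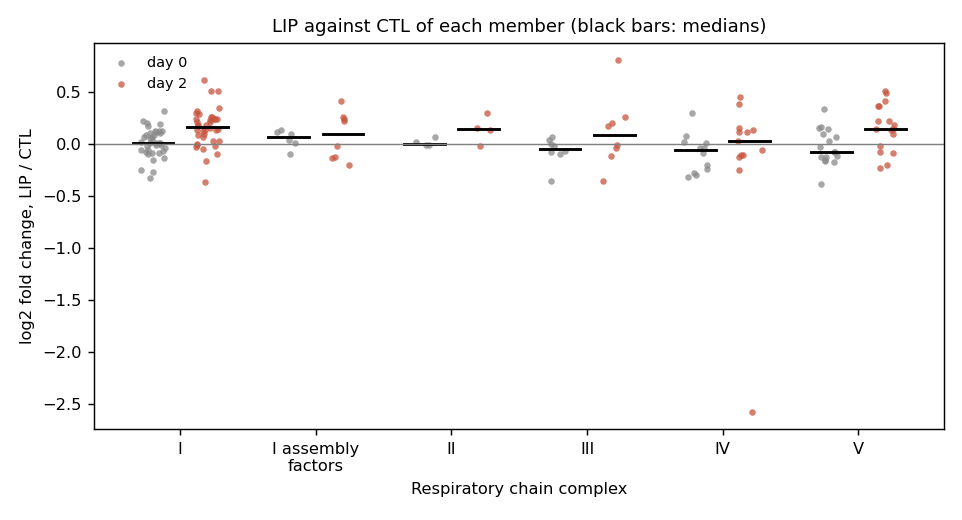
Log2 fold change of LIP over CTL for each member tested, by complex, on day 0 (grey) and day 2 (red), with medians as black bars. Day 0 points spread round 0 between -0.39 and 0.34, and day 2 medians lie between 0.03 and 0.16; the highest point is Uqcrq (0.80) and the lowest Cox6b2 (-2.57), and no point passed the adjusted threshold.

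Uqcrq had the highest fitted value of LIP over CTL on day 2 among the 88 members tested. It was at 63.1, 68.1 and 65.0 CPM in CTL and at 88.7, 138.5 and 117 CPM in LIP cells, with no overlap (log2 0.80, SE 0.167, unadjusted p 0.00111, edgeR adjusted p 0.12). Its adjusted p was 0.00235 by DESeq2, 0.00211 with no filter on low counts and 0.0104 in a fit of all 12 libraries. Ndufa6, an accessory subunit of complex I, was at 27.7, 25.1 and 27.8 CPM in CTL and at 33.1, 52.0 and 39.1 CPM in LIP cells (log2 0.61, SE 0.176, adjusted p 0.171). It was called with no filter (adjusted p 0.0378) and in the fit of all 12 libraries (adjusted p 0.0314). Cox4i1 and Cox7a2l did not overlap between the groups either, with log2 fold changes of 0.39 and 0.45 (adjusted p 0.193 and 0.235). In all 4 of these genes LIP 96 was the highest library and LIP 90 the lowest of the LIP group, as in the sums of the B cell and CD8 genes, whose part in these values was not tested. Cox6a2, which did not pass the filter on low counts, had a log2 value of 5.47 with no filter (adjusted p 0.00283), and it rested on the counts of LIP 96 and LIP 97 given above.

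Cox6b2 went the other way, at 4.23, 6.69 and 1.25 CPM in CTL and at 0.717, 0.655 and 0.648 CPM in LIP cells on day 2 (log2 -2.57, SE 0.593, edgeR adjusted p 0.131). It rested on few counts, was called lower by DESeq2 (adjusted p 0.00555) and lay at 0 to 0.551 CPM on day 0. Of complex I, Ndufa1, a small membrane subunit, had the lowest value on day 2 (-0.36), of complex III Uqcr11 (-0.36) and of complex V Atp5md (-0.24). The catalytic Sdha (-0.02) differed little between LIP and CTL cells.

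The day change itself did not differ beyond the threshold between LIP and CTL cells in any of the 87 members, where 0.0323% of all genes tested had a larger log2 fold change in LIP and 0.0194% a smaller one (edgeR quasi-likelihood test of the difference). At an unadjusted p under 0.05, 9 members had a larger change in LIP and 0 a smaller one, against 8.65% and 7.28% of all genes, and DESeq2 called 3 larger, where it called 2.68% of all genes larger. The median difference was 0.17 over the members and -0.001 over all genes, and 67 of 87 members were positive, against 49.9% of all genes. Single libraries moved these values. Without LIP 90 the median was 0.09, 57 of 89 members were positive, and at an unadjusted p under 0.05 there were 10 with a larger change in LIP and 7 with a smaller one. Without CTL 89 the median was 0.27, with 16 larger and 0 smaller. There were 16 larger and 1 smaller without CTL 97 of day 2, 15 and 0 without LIP 97, and 10 and 2 without CTL 94. Shares of all genes at the unadjusted threshold were not computed in these fits, so these counts cannot be set against them. Without LIP 90, 5.64% of all genes had a larger change and 4.45% a smaller one at the adjusted threshold. The measure did so too. Without TMM the summed level of the members rose 2.04-fold in CTL and 2.09-fold in LIP cells, and by median TPM the order was turned, with 2.01-fold in CTL and 1.84-fold in LIP cells. In the fit of all 12 libraries the 9 were Ndufa6, Ndufb9, Ndufs4, Uqcrq, Cox4i1, Cox7a2l, Atp5b, Atp5c1 and Atp5o. This difference uses the same libraries as the comparisons within each day and is not separate evidence for them.

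Uqcrq (difference 0.84, SE 0.216, adjusted p 0.102), Cox7a2l (0.79, SE 0.194, adjusted p 0.0936) and Cox4i1 (0.60, SE 0.158, adjusted p 0.103) had the smallest adjusted p-values. By DESeq2 their adjusted p-values were 0.0202, 0.0113 and 0.0201, and with no filter on low counts 0.00548, 0.00231 and 0.0379. Without LIP 90 these 3 genes and Ndufa6 were called (adjusted p 0.00181, 0.0016, 0.0109 and 0.0287), where 5.64% of all genes were called larger. For Cox7a2l both ends moved, since LIP cells lay below CTL cells on day 0 and above them on day 2.

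Other genes of oxidative phosphorylation were taken from 5 lists by function. Of the 13 subunits encoded in mitochondrial DNA, 6 rose in CTL and 12 in LIP cells and none fell, where 35.3% and 36.6% of all genes rose, with median fold changes of 1.3 and 1.9. With upper-quartile scaling 1 rose in CTL and 9 in LIP cells, with median log2 fold changes of 0.09 and 0.60. The mitochondrial Cox1 gene, mt-Co1, was at 6882, 9364 and 7525 CPM in CTL cells on day 0 and at 8763, 10260 and 8330 CPM on day 2 (log2 0.20, adjusted p 0.199, and -0.08 with upper-quartile scaling). In LIP cells mt-Co1 went from 6381, 5554 and 6758 to 10990, 9762 and 10860 CPM (log2 0.76, adjusted p 0.000223). One of the 12 called in LIP cells was mt-Co2, which was at 0 in all LIP libraries of day 0, for which no fold is given. Nuclear copies of mitochondrial DNA can share reads with these genes, so their counts are uncertain. On day 0, 0 of the 12 tested had higher fitted values in LIP cells, where 51.9% of all genes did. Of these, 7 were lower at an unadjusted p under 0.05, against 7.2% of all genes, and 0 passed the adjusted threshold. The difference of the day change was called in 0 of 13, of which 3 were larger at an unadjusted p under 0.05, against 8.65% of all genes.

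Of 20 electron carriers, enzymes of coenzyme Q synthesis and subunits named outside the rule, 12 rose in each group (60%), against 35.3% of all genes in CTL and 36.6% in LIP cells, and 3 fell in CTL and 2 in LIP cells. With upper-quartile scaling 8 of the 20 rose and 5 fell in CTL cells, and 11 rose and 5 fell in LIP cells. Cyc1, the cytochrome c1 of complex III, went from 28.3, 26 and 27.5 to 57.3, 63.7 and 69.2 CPM in CTL cells (2.32-fold, adjusted p 9.37e-07) and rose 2.1-fold in LIP cells. Cycs, cytochrome c, rose 2.4-fold and 3.15-fold (adjusted p 3.87e-06 and 2.97e-07). A list of 6 mitochondrial transport genes held Slc25a4 and Slc25a5, which exchange ADP and ATP across the inner membrane, the phosphate carrier Slc25a3, and the outer membrane channels Vdac1, Vdac2 and Vdac3. All 6 rose in both groups, with medians of 2.93-fold and 3.3-fold, which were above the medians of the members. Of 42 assembly factors outside the rule that were tested, 15 rose and 4 fell in CTL cells, and 21 rose and 3 fell in LIP cells. The share that rose was 35.7% in CTL and 50% in LIP cells, against 35.3% and 36.6% of all genes. With upper-quartile scaling 8 of the 42 rose and 12 fell in CTL cells, and 11 rose and 5 fell in LIP cells, where 27.5% and 27.7% of all genes rose and 44.1% and 45.8% fell.

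Of 18 regulators of respiratory genes and of mitochondrial DNA that were tested, 5 rose (27.8%) and 6 fell in each group, and the share that rose was below that of all genes (35.3% in CTL and 36.6% in LIP cells). Tfam, which packs and transcribes mitochondrial DNA, Gabpb1, a subunit of GABP, and Slirp, which stabilizes mitochondrial messengers, rose in both (log2 0.39, 0.41 and 1.35 in CTL and 0.68, 0.93 and 1.93 in LIP cells). Nrf1 (0.25) and Pprc1 (0.64) passed the test in CTL cells, and Gabpa (0.48) and Tfb1m (0.74) in LIP cells. Esrra, Yy1, Ppargc1b, Polrmt, Polg2 and Ssbp1 fell in both, with log2 fold changes from -0.20 (Yy1) to -1.77 (Polg2) in CTL and from -0.19 to -1.66 in LIP cells. Ppargc1a, a coactivator of mitochondrial growth in muscle and fat, was detected in 1 library only (0.12 CPM). With upper-quartile scaling 2 of the 18 rose and 10 fell in CTL cells, and 4 rose and 9 fell in LIP cells, where 44.1% and 45.8% of all genes fell, and Nrf1 turned to -0.04 in CTL cells. In LIP against CTL on either day, none of these 5 lists had a gene past the adjusted threshold (edgeR quasi-likelihood test). At an unadjusted p under 0.05 on day 2, 1 mtDNA-encoded subunit, 2 genes of the list of carriers, 4 assembly factors, 2 regulators and 3 transport genes were higher in LIP cells and 0 lower, where 8.33% of all genes were higher and 8.2% lower. On day 0, beside the 7 mtDNA-encoded subunits, 2 genes of the list of carriers, 1 assembly factor and 2 transport genes were lower in LIP cells, and 1 gene of the list of carriers was higher, where 7.2% of all genes were lower and 6.67% higher.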

How the data were processed

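Expected counts per gene record, deposited without normalization, were used for 12 libraries of rRNA-depleted, directional RNA from splenic CD4+ T cells. The authors estimated them with RSEM 1.3.0 and Bowtie2 after FastQC 0.11.9 and Trimmomatic (version 0.38 in the submitters' processing notes), on GRCm39. The deposited tables for each day also hold a signal per library after the authors' own normalization, used here only for gene symbols, and the authors' own fold changes and p-values, which were not used. Among the day 2 signal columns, 2 belong to no labelled sample and were not used. Each library was placed in its group by its title.

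After rounding, the expected counts were tested by edgeR 4.0.16 under R 4.3.3 (filterByExpr, TMM, quasi-likelihood test, Benjamini-Hochberg adjustment over all genes tested, threshold 0.05). LIP and CTL were compared within each day on 6 libraries, and the day contrasts and their difference were fitted on all 12. Of the 91 members, 56 had whole expected counts in every library; counts of the others are shared with other records and are less certain. Intervals and floors from counts cover counting error only. Library totals ran from 6249018 to 12866718. GENCODE M39 gave positions, transcript lengths and start sites. Genes named in the text were the highest and lowest of each complex in each contrast, fixed catalytic or scaffold subunits, fixed paralogues, and Cyc1, Cycs, the mtDNA-encoded subunits and the regulators; not every gene this selects is described, and genes listed by name at an unadjusted threshold were chosen after their values were seen. The members and lists were chosen with earlier results of these data known. Alternatives were RLE and upper-quartile scaling, DESeq2 1.42.0, other filters on low counts, other samples in the fit, members with whole counts, a correction for length and GC content, leaving out each library and, added after seeing the data, a block by library number. Scripts were tested on simulated data. Figures were drawn with Python 3.11.15 and matplotlib 3.10.9.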

Additional observations from a re-analysis of the deposited data

How the results depend on the processing

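Most results kept their direction and their side of the threshold. The members called higher from day 0 to day 2 were 76 in CTL and 81 in LIP cells, and they ranged from 75 to 77 and from 77 to 83 on leaving out single libraries; 44 and 48 of the 52 members with whole expected counts were called. With upper-quartile scaling the median fell to 0.96 in CTL and 1.061 in LIP cells, 4 members (Ndufaf3, Ndufaf4, Ndufaf7 and Cox7a2l) were called lower in CTL cells, and Sdha turned to -0.026 and -0.049. Called lower in CTL cells was 1 member with at least 10 counts in every library and 0 to 1 without 1 library, and in LIP cells 0 with no filter on low counts and 0 to 1 without 1 library. For LIP against CTL on day 0, 1 member was called lower by DESeq2, 1 with no filter and 0 to 1 without 1 library (1 without CTL 89). On day 2, called higher were 3 members with no filter, 1 by DESeq2, 3 in the fit of 12 libraries and 0 to 8 without 1 library, and called lower 1 with no filter, 1 by DESeq2 and 0 to 6 without 1 library; the 8 and 6 came without LIP 90. Of all genes, 1.59% were called higher with no filter, 2.08% by DESeq2 and 2.88% in the fit of 12 libraries. The difference of the day change was called in 3 members with no filter, 3 by DESeq2 and 0 to 4 without 1 library, the 4 without LIP 90, where 1.82% and 2.68% of all genes were called larger with no filter and by DESeq2. The cause of these shifts was not tested. After correction for length and GC content the members' medians were 1.23 in CTL and 1.37 in LIP cells over days, -0.016 and 0.13 for LIP against CTL on day 0 and day 2, and 0.17 for the difference.

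Without TMM, the summed level from day 0 to day 2 rose 1.87-fold in complex I, 1.41-fold in complex II and 2.04-fold in complex IV in CTL cells, and 1.88, 1.36, 2.21, 2.19 and 2.36-fold in complexes I to V in LIP cells. With the median transcript length, the ratio of median TPM over days was 1.86 in complex IV in CTL cells and 1.87, 2.22 and 1.83 in complexes I, III and IV in LIP cells, while complex II had the highest ratios of the 5 (2.55 and 2.41); LIP over CTL was 1.01 in complex III and 0.996 in complex IV on day 0 and 1.03 in complex I on day 2. Members under about 3 counts (0.233 to 0.48 CPM) cannot be compared at this depth. LIP and CTL could not be paired within a day, because they share 1 library number, 94 on day 0 and 97 on day 2, and the days of a group share none. In the difference of the day change, LIP of day 0 and CTL of day 2 also share 92 and 93. A replicate block by library number there, chosen after seeing the data, left 1 residual degree of freedom, called 1 member larger (Cox7a2l) and 1 smaller (Ndufa1), where 2.39% and 1.16% of all genes were called, and had a median of -0.035; nothing says that the numbers pair these libraries.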
